A study of Homo sapiens with 9 samples.

Results

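The genes described here are 10 genes of the NF-κB system: the 5 Rel subunits NFKB1, NFKB2, RELA, RELB and REL, the inhibitors NFKBIA and NFKBIE, the ubiquitin regulators TNFAIP3 and BIRC3, and the kinase IKBKE. They were taken by gene symbol from a gene count table of 58735 genes, and all 10 were found once. All 10 were also among the 16928 genes that passed the filter on low counts. RNA-seq had been carried out on OVCAR4, an established cell line of high-grade serous ovarian cancer, to ask what changes when MPZL3, a transmembrane protein predicted to act in cell adhesion, is lowered. Of the 9 libraries, 3 came from wild-type cells given a scrambled shRNA (scr control), 3 from cells given shMPZL3 #1 and 3 from cells given shMPZL3 #2. All 9 populations had been transduced with an shRNA virus and selected with puromycin, so the controls shared the vector and the drug. The model has limits that bear on every value: 1 cell line was used, the knockdown was partial, and neither an NF-κB stimulus nor an inhibitor was part of the design. The study's methods call the replicates biological, and neither they nor the labels say how the cultures were kept apart, so p-values measure the spread between these libraries.

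In resting cells, NF-κB dimers are held in the cytoplasm by IκB proteins. In the canonical route, receptors such as those for TNF, interleukin-1 and Toll-like receptor ligands recruit adaptors and ubiquitin ligases, the IKK complex phosphorylates IκB, and dimers that contain RELA move to the nucleus. In the noncanonical route, the kinase NIK (MAP3K14) drives the processing of the NFKB2 precursor, and RELB is the main partner of the product. NF-κB is known to bind the promoters of several of its own subunits and inhibitors, so the system feeds back on itself, and it is known in ovarian cancer cells for driving chemokine and cytokine genes.

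The promoters hold short matches to the κB consensus, the sequence NF-κB dimers bind. They are shown because some of the genes whose transcript levels are described below carry them. Windows from 250 bases before to 50 bases after an annotated start site were taken from RefSeq (GRCh38.p14). A window was matched for 8 of the 10 genes, in 12 windows, and RELB and NFKBIE had no entry. A match on either strand was present for 6 of these 8 genes (75%), in 7 of the 12 windows (58.3%). Over the whole table, 3619 of 27305 genes (13.3%) and 3956 of 35116 windows (11.3%) held one. In the stretches below, written 5′ to 3′ on the strand of the gene, capitals mark the matched letters.
NFKB1, chr4:102501300-102501329, plus strand: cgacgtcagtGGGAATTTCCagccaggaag
NFKB2, chr10:102395674-102395703, plus strand: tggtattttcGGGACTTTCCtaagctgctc
REL, chr2:60881518-60881547, plus strand: gtcagccgcGGGAAATTCCCctcccgccag
NFKBIA, chr14:35404811-35404840, minus strand: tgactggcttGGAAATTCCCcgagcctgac
TNFAIP3, chr6:137867188-137867217, plus strand: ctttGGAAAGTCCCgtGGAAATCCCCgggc
BIRC3, chr11:102317275-102317304, plus strand: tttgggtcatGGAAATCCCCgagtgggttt
BIRC3, chr11:102317339-102317368, plus strand: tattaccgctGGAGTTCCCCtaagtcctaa

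The match of NFKB1 lay at positions -49 to -40 from its first start site. NFKBIA held 1 match at -81 to -72. TNFAIP3 held a pair, at -67 to -58 and -55 to -46, and the stretch shown overlaps an exon of 1 annotated transcript. BIRC3 held a pair further upstream, at -199 to -190 and -135 to -126. The REL stretch lay at -47 to -37 and read as a match on both strands, and it overlaps an exon of 1 annotated transcript. NFKB2 had matches before 2 of its 3 start sites, and the one printed lies at -21 to -12 from the third and overlaps an exon of 1 annotated transcript. The remaining stretches of NFKB2 follow, and each of the first 2 overlaps exons of 3 annotated transcripts.
NFKB2, chr10:102394462-102394491, plus strand: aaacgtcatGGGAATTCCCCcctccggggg
NFKB2, chr10:102394490-102394519, plus strand: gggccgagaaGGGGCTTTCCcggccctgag
NFKB2, chr10:102395519-102395548, plus strand: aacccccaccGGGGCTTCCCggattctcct

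No match was present in the 2 windows of RELA or the window of IKBKE, which says only that these letters are not in those windows. A match is a description of the sequence, and no binding was measured. The genes were chosen as members of the NF-κB system, so the shares with a match are tied to that choice.

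**Figure D1:**
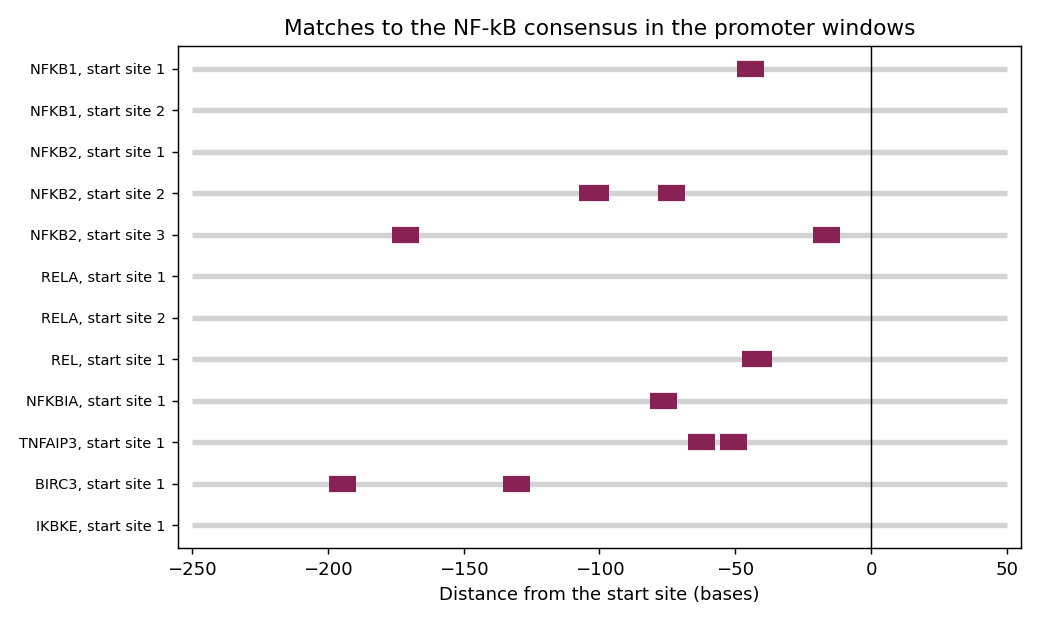
Positions of κB consensus matches in the 12 promoter windows of 8 of the genes. The horizontal axis is the distance from the start site in bases, grey lines are the windows and coloured blocks are the matches; the vertical line is the start site. Matches lie upstream of the start site in all 7 windows that hold one.

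Total counts ranged from 15040102 to 27835841 per library, and the lowest count of any of the 10 genes was 142, for REL. The targeted gene MPZL3 was lower in every knockdown library. Its normalized counts, in which each library is brought to the mean effective size of the 9, were 536, 611 and 587 in scr control, 119, 143 and 123 with shMPZL3 #1, and 284, 380.4 and 271 with shMPZL3 #2. The 6 knockdown libraries fell by 1.39 on the log2 scale (SE 0.31, adjusted p = 0.0104), and MPZL3 was higher with shMPZL3 #2 than with shMPZL3 #1 by 1.28 (SE 0.16, adjusted p = 5.72e-05). Epithelial markers were present, with a summed level of 4941 to 5196 CPM (counts relative to a fixed library total) in scr control, and of the 8 markers WT1 alone was too low to be tested. scr control replicate 1 stood apart for the genes described here: it was the lowest of its group in 9 of the 10, against 38.6% of all genes tested. For the 10 genes, calls that were lost without this library are given with and without it. For the pathway lists with calls over both shRNAs, the count of genes called higher is given both ways. Tests of MPZL3, of single list genes and of cell type markers are given only with it. The same holds for the subunit shares and the ratios, and how far these results rest on it was not tested.

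In the knockdown of MPZL3, 5 of the 10 genes rose: BIRC3, RELB, TNFAIP3, NFKB2 and NFKBIA. BIRC3 was 4.27-fold higher, RELB 2.00-fold, TNFAIP3 1.73-fold, NFKB2 1.54-fold and NFKBIA 1.40-fold, each over 6 knockdown and 3 scr control libraries. A gene was called when its adjusted p, from edgeR's quasi-likelihood test with Benjamini-Hochberg adjustment over all genes tested, was under 0.05. Of all genes tested, 9.36% were called higher and 6.4% lower in this comparison. None of the 10 genes was called lower by edgeR, at an unadjusted p under 0.05 or by DESeq2 (0 in each). All 10 had estimates above 0, with a median log2 fold change of 0.47 against 0.02 over all genes tested. In 4 genes, NFKB2, RELB, NFKBIA and BIRC3, every knockdown library lay above every scr control library, which was so for 11.8% of all genes tested. Without scr control replicate 1, the calls of RELB and BIRC3 remained and those of NFKB2 (0.51, adjusted p = 0.0864), NFKBIA (0.43, adjusted p = 0.0877) and TNFAIP3 (0.61, adjusted p = 0.179) were lost. In the same setting the calls over all genes tested dropped from 1584 higher and 1083 lower to 453 and 172.

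**Figure D2:**
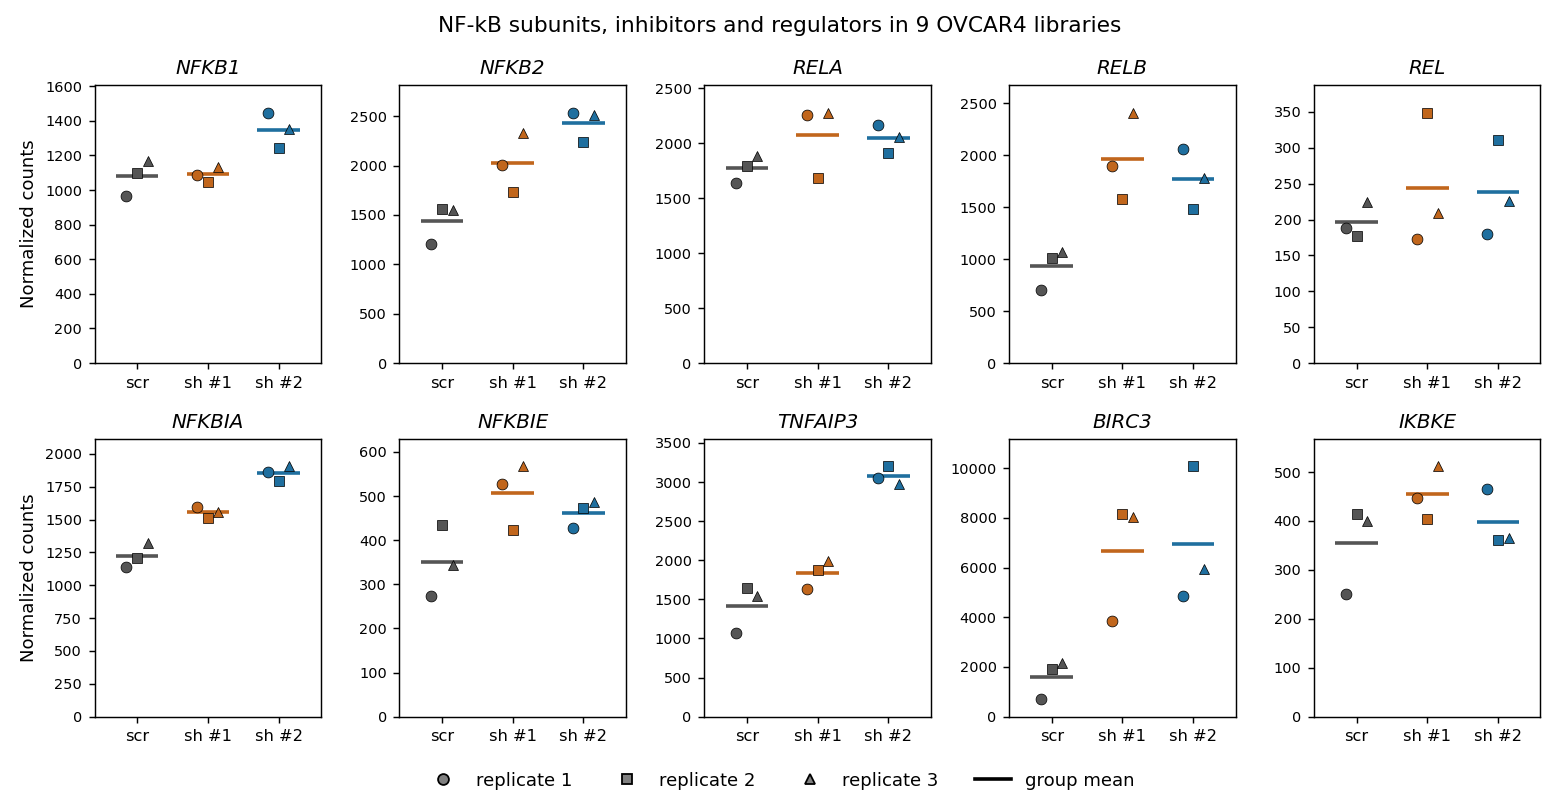
Normalized counts of the 10 genes in each of the 9 libraries, by group. Points are libraries, with a marker shape per replicate number, and horizontal lines are group means; every vertical axis starts at 0 and has its own range. BIRC3, RELB, NFKB2 and NFKBIA have all 6 knockdown libraries above the 3 scr control libraries, and REL overlaps between all groups.

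RELB (ENSG00000104856, chr19:45001430-45038198, plus strand), the Rel subunit of the noncanonical route, changed most among the subunits. Its normalized counts were 705, 1015 and 1069.6 in scr control, 1892, 1574 and 2407 with shMPZL3 #1, and 2062, 1477 and 1778 with shMPZL3 #2. All 6 knockdown libraries lay above the 3 scr control libraries, and both shRNAs covered much the same range. The log2 fold change was 1.00 (SE 0.17, adjusted p = 0.00234), and for the separate shRNAs it was 1.07 (adjusted p = 0.000169) and 0.93 (adjusted p = 0.00112). The call remained under every alternative tried, with estimates between 0.83 and 1.11 in the comparison of both shRNAs.

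NFKB2 (ENSG00000077150, chr10:102394110-102402529, plus strand), whose precursor is processed to the partner of RELB, rose less. Its normalized counts were 1203, 1566 and 1555 in scr control, 2004, 1738 and 2329 with shMPZL3 #1, and 2536, 2239 and 2513 with shMPZL3 #2. Again no knockdown library overlapped the controls. Against scr control the log2 fold change was 0.63 (SE 0.14, adjusted p = 0.00935), with 0.49 (adjusted p = 0.00635) for shMPZL3 #1 and 0.75 (adjusted p = 0.000517) for shMPZL3 #2. Leaving out scr control replicate 1 took shMPZL3 #1 outside the threshold (0.37, adjusted p = 0.052).

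NFKB1 (ENSG00000109320, chr4:102501329-102617302, plus strand) encodes the precursor of the subunit that pairs with RELA in the most common canonical dimer. Its normalized counts were 967, 1099.8 and 1170.0 in scr control, 1088, 1049 and 1132 with shMPZL3 #1, and 1447, 1246 and 1349.9 with shMPZL3 #2. The shMPZL3 #1 libraries lay within the range of the controls, whereas those with shMPZL3 #2 lay above both other groups. The log2 fold change was 0.015 (SE 0.10, adjusted p = 0.932) for shMPZL3 #1 and 0.32 (SE 0.10, adjusted p = 0.0444) for shMPZL3 #2. The second of these did not hold without scr control replicate 1 (0.24, adjusted p = 0.238), and it was also lost without scr control replicate 2, scr control replicate 3, shMPZL3 #2 replicate 1 or shMPZL3 #2 replicate 3, and with no filter on low counts. The direct difference between the shRNAs was 0.31 (SE 0.10, adjusted p = 0.0531), outside the threshold, and DESeq2 placed it inside (adjusted p = 0.0429).

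RELA (ENSG00000173039, chr11:65653596-65663094, minus strand), the main activating subunit of the canonical route, was not called in any comparison. Normalized counts stood at 1642, 1793 and 1886 in scr control, 2259, 1686 and 2278 with shMPZL3 #1, and 2170.4, 1911 and 2056 with shMPZL3 #2. Only shMPZL3 #1 replicate 2 overlapped the controls among the knockdown libraries, and the log2 fold change was 0.22 (SE 0.11, adjusted p = 0.197). Without that replicate, shMPZL3 #1 gave 0.36 (adjusted p = 0.015). RELA overlaps another annotated gene, AP001362.2, on the opposite strand, whose summed count was 2.06% of that of RELA.

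REL (ENSG00000162924, chr2:60881521-60931610, plus strand), a subunit best known from lymphoid cells, was the lowest of the 10 genes. Normalized counts stood at 189, 177 and 224 in scr control, 173, 349 and 209 with shMPZL3 #1, and 180.2, 310.4 and 225 with shMPZL3 #2. The highest library of each knockdown group was its replicate 2, and the other knockdown libraries lay near the range of the controls. Against scr control the log2 fold change was 0.29 (SE 0.23, adjusted p = 0.397), so the difference was close to its standard error.

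Subunits can be set beside each other only on a scale that allows for gene length. The level used here was the scaled CPM divided by the deposited gene length in kilobases. In scr control, the sum over the 5 subunits was made up of RELA 28.7% ± 2.03, NFKB2 28.2% ± 0.783, RELB 26.7% ± 2.37, NFKB1 15.2% ± 0.67 and REL 1.32% ± 0.182 (SD, n = 3 each). RELB took 23.9% to 28.2% of the sum in the controls, 36.8% to 41.2% with shMPZL3 #1 and 31.2% to 36.0% with shMPZL3 #2, so the ranges of all 3 groups were separate. NFKB1 took 14.6% to 15.9% in the controls and less in both knockdowns, at 9.39% to 11.9% and 12.3% to 12.8%. RELA took 27.3% to 31.0% in the controls and also less in the knockdowns, at 21.6% to 24.7% and 21.0% to 22.4%. NFKB2 took 27.7% to 29.1% in the controls, 26.7% to 27.5% with shMPZL3 #1 and 29.97% to 32.0% with shMPZL3 #2. The shares add up to 1 whole and are not independent of each other, and no test was made on them. On counts not divided by length the share of RELB was smaller, 17.0% ± 1.77 in the controls against 26.3% ± 2.21 and 22.5% ± 2.00, with the same order of the groups. The share of NFKB2 did not keep its order on that scale. It was 26.5% ± 1.08 in the controls and 27.4% ± 0.459 with shMPZL3 #1, with ranges that overlapped (25.6% to 27.7% and 27.0% to 27.9%).

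**Figure D3:**
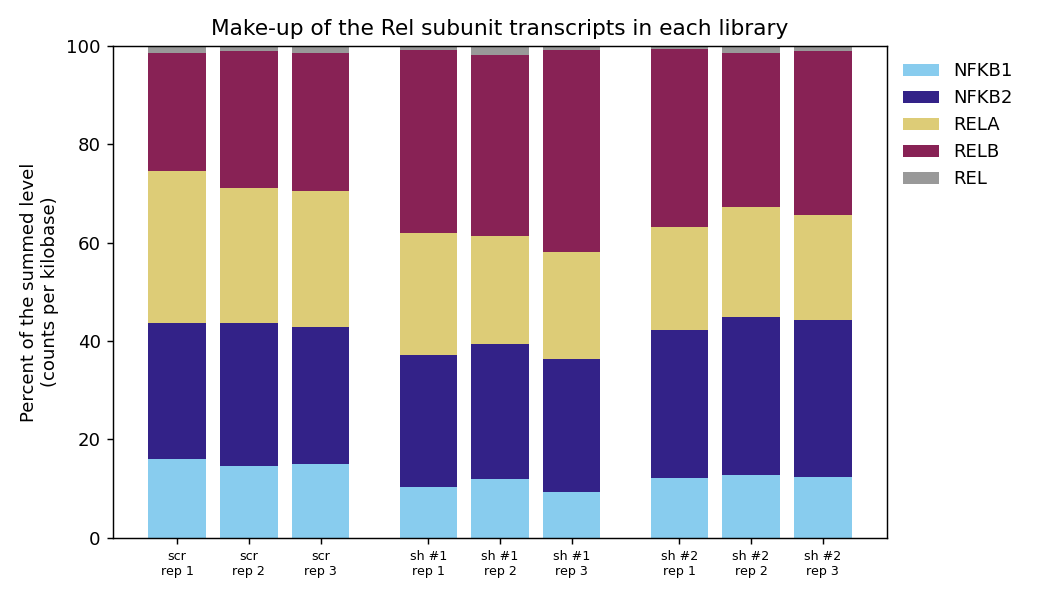
Share of each Rel subunit in the summed level of the 5 subunits, in each of the 9 libraries. The vertical axis is the percent of the summed counts per kilobase and colours are the subunits; there are 3 libraries per group. RELB takes at most 28.2% of the sum in the scr control libraries and at least 31.2% in the knockdown libraries.

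The ratio of RELB to RELA, both per length, was 0.773, 1.02 and 1.02 in the 3 controls. It was 1.51, 1.68 and 1.90 with shMPZL3 #1 and 1.71, 1.39 and 1.56 with shMPZL3 #2. The 2 precursor genes showed the same kind of shift: NFKB2 to NFKB1 was between 1.74 and 1.99 in the controls and between 2.31 and 2.87 in the knockdown libraries. No library of either knockdown overlapped the controls in these 2 ratios. The ratios of NFKBIA, NFKBIE and TNFAIP3 to RELA were also taken, and in each of them shMPZL3 #1 overlapped the controls. NFKBIA to RELA was 1.55 to 1.61 in the controls and 1.58 to 2.07 with shMPZL3 #1. With shMPZL3 #2, NFKBIE to RELA overlapped the controls as well, and NFKBIA and TNFAIP3 to RELA lay above them. Ratios of other gene pairs were not taken.

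NFKBIA (ENSG00000100906, chr14:35401511-35404749, minus strand) encodes IκBα, the inhibitor that NF-κB re-induces to end a canonical response. Normalized counts stood at 1139.5, 1204 and 1318 in scr control, 1592, 1513 and 1559.6 with shMPZL3 #1, and 1861, 1792 and 1905 with shMPZL3 #2. The 3 groups did not overlap. The log2 fold change was 0.48 (SE 0.11, adjusted p = 0.0102), with 0.35 (SE 0.09, adjusted p = 0.00901) for shMPZL3 #1 and 0.60 (SE 0.09, adjusted p = 0.000322) for shMPZL3 #2. The first of these calls was lost not only without scr control replicate 1 but also without scr control replicate 2 (0.47, adjusted p = 0.0587), and that of shMPZL3 #1 without scr control replicate 1 (0.30, adjusted p = 0.0637). Between the shRNAs the difference was 0.25 (SE 0.09, adjusted p = 0.075).

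NFKBIE (ENSG00000146232, chr6:44258166-44265788, minus strand) encodes IκBε, a second inhibitor of the same family. Normalized counts stood at 274, 434 and 344 in scr control, 528, 424 and 567 with shMPZL3 #1, and 427, 473 and 486 with shMPZL3 #2. The highest control lay above 1 library of each knockdown. Against scr control the log2 fold change was 0.46 (SE 0.15, adjusted p = 0.0542) over both shRNAs, just outside the threshold, and 0.53 (SE 0.16, adjusted p = 0.0189) for shMPZL3 #1, while shMPZL3 #2 gave 0.39 (SE 0.16, adjusted p = 0.11). The adjusted p of both shRNAs ranged from 0.0229 to 0.288 over the alternatives, and DESeq2 gave 0.0284. The call of shMPZL3 #1 disappeared on leaving out scr control replicate 1 (adjusted p = 0.113), scr control replicate 3 (adjusted p = 0.0614) or shMPZL3 #1 replicate 3 (adjusted p = 0.0857).

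TNFAIP3 (ENSG00000118503, chr6:137867188-137883312, plus strand) encodes A20, a ubiquitin-editing enzyme that shuts off signalling from the TNF and Toll-like receptors. The libraries gave normalized counts of 1064, 1643 and 1544 in scr control, 1628, 1871 and 1996 with shMPZL3 #1, and 3049, 3201 and 2972 with shMPZL3 #2. The shMPZL3 #2 libraries stood far above both other groups, and shMPZL3 #1 overlapped the controls. The log2 fold change was 0.79 (SE 0.22, adjusted p = 0.0312) over both shRNAs. For shMPZL3 #1 it was 0.37 (SE 0.13, adjusted p = 0.0443) and for shMPZL3 #2 1.12 (SE 0.13, adjusted p = 3.16e-05). The shMPZL3 #2 call remained under every alternative, with estimates from 0.94 to 1.24. The shMPZL3 #1 call did not hold without scr control replicate 1 (0.19, adjusted p = 0.255), and was also lost without scr control replicate 3, shMPZL3 #1 replicate 2, shMPZL3 #1 replicate 3 or shMPZL3 #2 replicate 1. The call over both shRNAs was lost without any one of the 3 controls (adjusted p = 0.179, 0.0665 and 0.0775 without replicates 1, 2 and 3). An antisense gene, AL357060.1, had 1.32% of the summed count of TNFAIP3, and the libraries did not keep strand.

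BIRC3 (ENSG00000023445, chr11:102317450-102339403, plus strand) encodes cIAP2, a ubiquitin ligase that acts at the TNF receptor and, in resting cells, on NIK. It changed most of the 10 genes. The libraries gave normalized counts of 709, 1916 and 2161 in scr control, 3852, 8153 and 8026 with shMPZL3 #1, and 4861, 10079 and 5964 with shMPZL3 #2. Every knockdown library was above the highest control, although the spread within each group was wide. Against scr control the log2 fold change was 2.10 (SE 0.36, adjusted p = 0.0025), with 2.06 (adjusted p = 0.000284) and 2.12 (adjusted p = 0.000454) for the separate shRNAs. Over the alternatives the estimate for both shRNAs lay between 1.73 and 2.36 and was called in each. The paralog BIRC2, which encodes cIAP1, had normalized counts of 2651 to 2903 in the controls and 2907 to 5206 in the knockdown libraries. The groups were thus separate only by a narrow margin, and 11.8% of all genes tested had every knockdown library above every control. The change of BIRC2 over both shRNAs was 0.45 (SE 0.16, adjusted p = 0.0731), which was not called. BIRC2 was called higher with shMPZL3 #1 (0.66, adjusted p = 0.00103), gave 0.22 with shMPZL3 #2 (adjusted p = 0.278), and was lower with shMPZL3 #2 than with shMPZL3 #1 (-0.44, adjusted p = 0.0293).

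IKBKE (ENSG00000263528, chr1:206470476-206496889, plus strand) encodes IKKε, a kinase related to TBK1 that is known in interferon and NF-κB signalling. The libraries gave normalized counts of 249.98, 415 and 400.1 in scr control, 447, 404 and 512 with shMPZL3 #1, and 466, 361 and 365 with shMPZL3 #2. The groups overlapped apart from the low first control. The log2 fold change was 0.26 (SE 0.17, adjusted p = 0.324), and IKBKE was not called for either shRNA (0.35, adjusted p = 0.139, and 0.16, adjusted p = 0.596). Without scr control replicate 1, shMPZL3 #2 gave -0.046 (adjusted p = 0.902). An antisense gene, C1orf147, had 1.78% of the summed count of IKBKE.

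**Figure D4:**
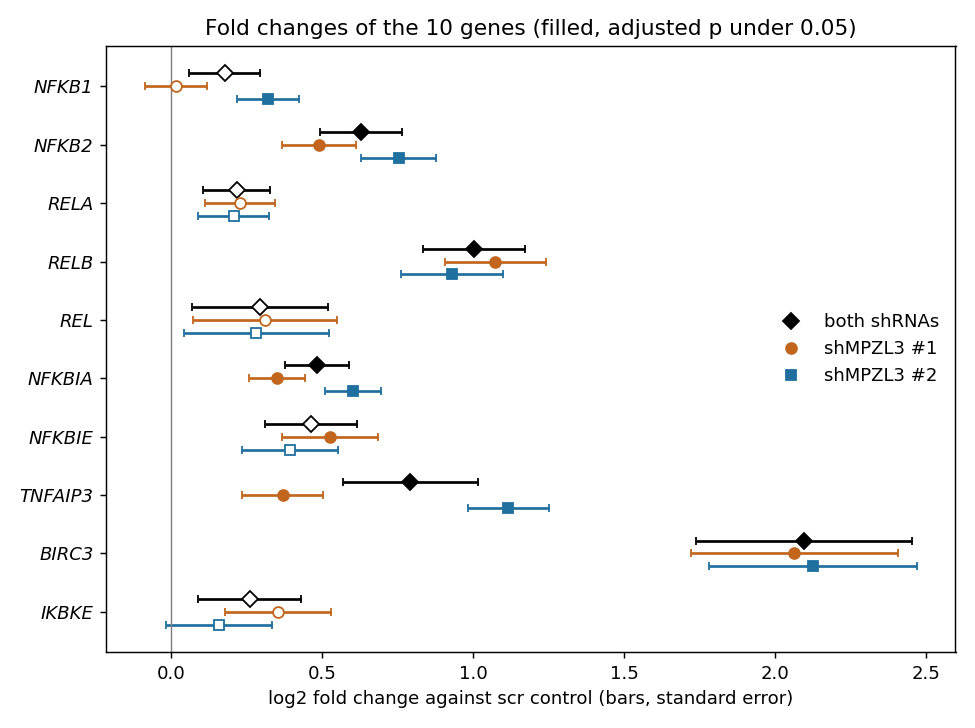
Log2 fold changes of the 10 genes against scr control, for both shRNAs together (6 against 3 libraries) and for each shRNA (3 against 3). Symbols are estimates, bars are standard errors and filled symbols have an adjusted p under 0.05. BIRC3 is highest at 2.06 to 2.12, and the symbols of TNFAIP3 lie furthest apart, at 0.37 for shMPZL3 #1 and 1.12 for shMPZL3 #2.

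Each shRNA set against the same 3 controls gave 6 called genes, all higher. These were NFKB2, RELB, NFKBIA, NFKBIE, TNFAIP3 and BIRC3 for shMPZL3 #1, where 16.8% of all genes tested were called higher, and NFKB1, NFKB2, RELB, NFKBIA, TNFAIP3 and BIRC3 for shMPZL3 #2, where 9.36% were called higher and 5.8% lower. Without scr control replicate 1 the count was 2 for shMPZL3 #1 and 5 for shMPZL3 #2. In that setting the calls over all genes tested with shMPZL3 #2 dropped from 1585 higher and 982 lower to 910 and 488. With shMPZL3 #1, 2838 of all genes tested were called higher, and 1994 to 2992 with any 1 library left out. With all libraries, no overlap with the controls was seen in 4 of the 10 genes for shMPZL3 #1 (23.9% of all genes tested). For shMPZL3 #2 this was so in 7 (18.7%).

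The direct comparison of the shRNAs, in which the control libraries enter the estimate of the spread but not the difference, asked whether their effects on a gene differed. Of the 10 genes, TNFAIP3 was the 1 called in this fit (DESeq2 called 2), higher with shMPZL3 #2 by 0.75 on the log2 scale (SE 0.13, adjusted p = 0.00122), where 7.56% of all genes tested were called higher and 7.56% lower. TNFAIP3 was called under every alternative, between 0.66 and 0.81. In NFKB1, NFKBIA and TNFAIP3 the shMPZL3 #2 libraries all lay above those of shMPZL3 #1, which held for 15.4% of all genes tested. RELB (-0.14, SE 0.16) and BIRC3 (0.06, SE 0.33) were not called, and for BIRC3 the standard error leaves room for a difference of either sign. MPZL3 itself was also the lower with shMPZL3 #1. The depth of the knockdown and other differences between the shRNAs cannot be told apart in this design, and their part in TNFAIP3 was not tested. A two-sided exact permutation test on the log2 CPM of single genes cannot give a p below 0.1 for 3 libraries against 3, and 0.0238 is the lowest it gives for 6 against 3; NFKB2, RELB, NFKBIA and BIRC3 reached the latter.

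Per length, the order of the 10 genes in scr control was NFKBIA (25.1 ± 1.86 CPM per kilobase, SD, n = 3), RELA (15.8 ± 1.10), NFKB2 (15.7 ± 2.24), RELB (14.9 ± 3.16), TNFAIP3 (13.7 ± 2.99), BIRC3 (10.3 ± 5.04), NFKB1 (8.40 ± 0.804), NFKBIE (6.61 ± 1.51), IKBKE (4.56 ± 1.17) and REL (0.727 ± 0.0901). NFKBIA stood above the rest and REL below it in each control library, and every pair of neighbours between RELA and IKBKE overlapped. With shMPZL3 #1, BIRC3 came first (43.2 ± 15.9), followed by NFKBIA (31.9 ± 0.811), RELB (31.4 ± 6.75), NFKB2 (21.98 ± 3.22), RELA (18.5 ± 3.00) and TNFAIP3 (17.7 ± 1.80), and each of these neighbours overlapped. With shMPZL3 #2, BIRC3 (45.1 ± 17.8) overlapped NFKBIA (38.01 ± 1.16), which lay above TNFAIP3 (29.6 ± 1.13). TNFAIP3 overlapped RELB (28.4 ± 4.69), and RELB overlapped NFKB2 (26.4 ± 1.80). BIRC3 thus moved from the sixth place to the first in both knockdowns, a place it held without being separate from NFKBIA.

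The rest of the pathway was described through 4 lists. Among 29 tested of 30 receptors and adaptors, 10 were called higher and 0 lower over both shRNAs, with a median log2 fold change of 0.22. Of all genes tested, 9.36% were called higher and 6.4% lower. By edgeR at an unadjusted p under 0.05, and by DESeq2, the count of lower genes in the list was also 0. The 4 called genes with the largest change were TLR3 and TLR2, receptors for double-stranded RNA and for bacterial lipoproteins, IRAK2, a kinase of the interleukin-1 and Toll-like receptor route, and TRAF1, an adaptor of TNF receptors. TLR3 went from 53.2 to 75.6 normalized counts in the controls to between 148 and 342 in the knockdown libraries (1.87, SE 0.30, adjusted p = 0.00174). TLR3 was lower with shMPZL3 #2 than with shMPZL3 #1 (-0.77, SE 0.20, adjusted p = 0.0154). Between the shRNAs, 2 of the list were called higher with shMPZL3 #2 and 2 lower, where 7.56% of all genes tested were called each way. IRAK2 was low, at 9.31 to 20.8 against 30.4 to 70.5 (1.86, SE 0.38, adjusted p = 0.00697). TRAF1 rose by 1.68 (SE 0.31, adjusted p = 0.00359) and TLR2 by 1.17 (SE 0.15, adjusted p = 0.00061). Without scr control replicate 1, 6 of the list were called higher, and the calls over all genes tested dropped from 1584 higher to 453.

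Of the 8 IKK and related kinases and their adaptors, none was called over both shRNAs by edgeR, where an unadjusted p under 0.05 was reached by 1 higher and 2 lower, and DESeq2 called 0 higher and 1 lower. The median was 0.18. The catalytic subunits CHUK (IKKα) and IKBKB (IKKβ) gave -0.33 (SE 0.12, adjusted p = 0.0791) and 0.19 (SE 0.12, adjusted p = 0.327). The regulatory subunit IKBKG (NEMO) gave 0.35 (SE 0.20, adjusted p = 0.252). MAP3K14, the kinase of the noncanonical route, gave -0.02 (SE 0.13, adjusted p = 0.927), with normalized counts of 468 to 494 in the controls and 370 to 566 in the knockdown libraries. With shMPZL3 #1 alone, 2 of the 8 were called higher and 2 lower, where 16.8% of all genes tested were called higher and 15.3% lower, and both counts went down to 0 in some fits with 1 library left out.

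Other inhibitors and deubiquitinases were called higher in 4 of 14 tested of 15 genes, where 9.36% of all genes tested were called higher, and their median was 0.34. By edgeR, at an unadjusted p under 0.05 or by DESeq2, 0 were called lower. These were ZC3H12A, a ribonuclease that degrades inflammatory transcripts (0.75, SE 0.16, adjusted p = 0.00746), CYLD, a deubiquitinase (0.61, SE 0.18, adjusted p = 0.0387), TNIP1, a partner of A20 (0.61, SE 0.12, adjusted p = 0.00465), and TNIP2 of the same family (0.38, SE 0.12, adjusted p = 0.0438). Without scr control replicate 1, 0 of the list were called higher, and the calls over all genes tested dropped from 1584 higher to 453. TNIP1 is also one of the genes whose profile was closest to that of NFKB2.

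Target genes were called higher in 19 of 25 tested of 29, where 9.36% of all genes tested were called higher, and their median was 1.59. By edgeR, at an unadjusted p under 0.05 or by DESeq2, 0 were called lower. The largest changes were in the chemokines CXCL3 (2.51, SE 0.65, adjusted p = 0.0224), CXCL1 (2.21, SE 0.62, adjusted p = 0.0294) and CXCL2 (2.17, SE 0.57, adjusted p = 0.023), which attract neutrophils, and in the acute phase gene SAA1 (2.45, SE 0.44, adjusted p = 0.00357). Normalized counts of CXCL1 were 456 to 1631 in the controls, 1945 to 2257 with shMPZL3 #1 and 7980 to 10626 with shMPZL3 #2. CXCL3 likewise went from 27.9 to 56.4 in the controls to between 76.5 and 108 with shMPZL3 #1 and between 414 and 446 with shMPZL3 #2. Between the shRNAs, 12 of the 25 were called higher with shMPZL3 #2 and 1 lower, where 7.56% of all genes tested were called each way. Both genes just described were among the 12 (CXCL1 2.12, SE 0.28, adjusted p = 0.000121, and CXCL3 2.28, SE 0.20, adjusted p = 3.48e-06). The list differed by shRNA: with shMPZL3 #1, 17 were called higher and the median was 0.79, where 16.8% of all genes tested were called higher. With shMPZL3 #2, 23 were called higher and the median was 1.62, where the share over all genes tested was 9.36%. CCL20, a chemokine named after its values were seen, had normalized counts of 29.3 to 109 in the controls, 35.9 to 58.6 with shMPZL3 #1 (-0.90, adjusted p = 0.0753) and 481 to 855 with shMPZL3 #2 (2.89, adjusted p = 1.83e-05). Without scr control replicate 1, 10 target genes were called higher over both shRNAs, and the calls over all genes tested dropped from 1584 higher to 453. TRAF1 stands in this list as well as in that of the receptors and adaptors. A κB match was present in the promoter windows of 12 of 25 target genes that had a window (48%), against 13.3% of all genes with a window. The list was written as NF-κB target genes, so this share is tied to the choice of genes and says nothing about the changes above.

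**Figure D5:**
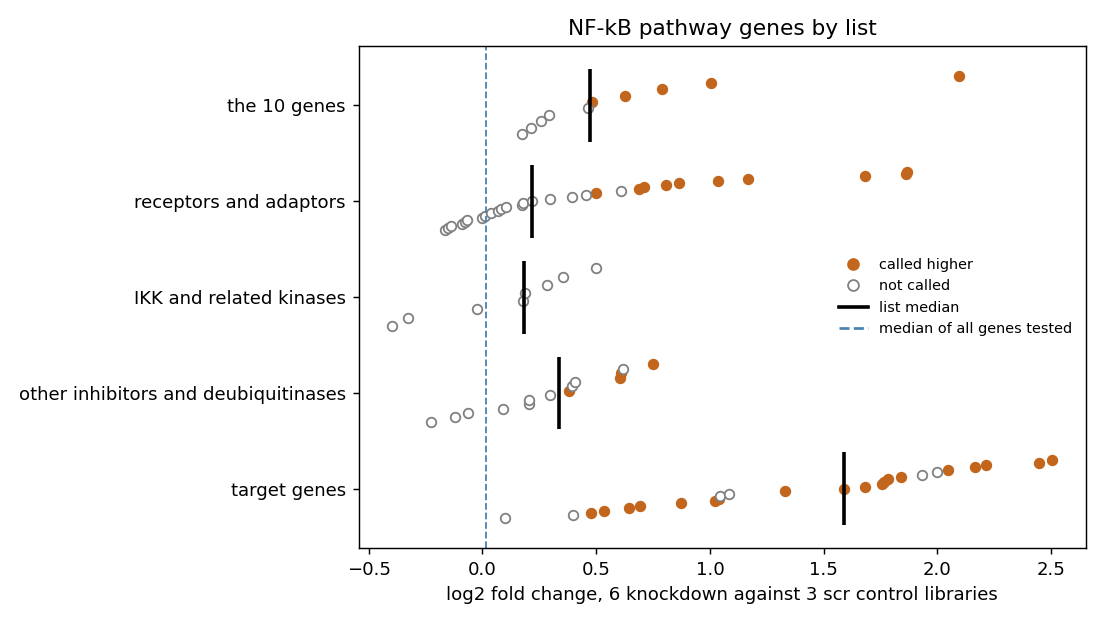
Log2 fold changes of the 10 genes and of the tested genes in 4 pathway lists, 6 knockdown against 3 scr control libraries. Points are genes, filled where called higher, the short vertical lines are list medians and the dashed line is the median of all genes tested. The medians are 0.47 for the 10 genes, 0.22, 0.18 and 0.34 for the next lists and 1.59 for the target genes.

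Likeness of profile was measured as the root mean square difference between mean-centred log2 CPM over the 9 libraries, against 11916 protein-coding genes. The gene most like BIRC3 was SAA2, a paralog of SAA1, at a difference of 0.196 log2 units where the SD of BIRC3 over the libraries was 1.17. RELB was closest to IDUA (0.107), NFKB2 to PSMB10 (0.069), TNFAIP3 to FAM129A (0.0948) and NFKBIA to PSME1 (0.0529). NFKB1 was closest to POLG (0.0433), RELA to ANXA11 (0.0418), REL to SNX16 (0.132), NFKBIE to CYSTM1 (0.105) and IKBKE to EVA1B (0.0947). A gene that varies little has many near neighbours on this measure, and the values are descriptions over libraries that share their groups. Among the 10 genes themselves, the closest pair was NFKB2 and NFKBIA, at 0.138, followed by NFKB1 and NFKBIA, at 0.155.

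NF-κB genes are also expressed by leukocytes and stromal cells, so markers of these were read beside the results. All 9 libraries came from cultures of 1 established cell line, and no other cell type was part of the design. The markers are thus transcript levels in these cultures and give no number of cells of another type. Of 7 leukocyte markers 4 passed the filter on low counts. Their summed level was 2.53 to 3.35 CPM in scr control, 3.82 to 5.42 with shMPZL3 #1 and 4.04 to 6.87 with shMPZL3 #2, and CD14 (1.60, adjusted p = 0.0237) and ITGAM (2.01, adjusted p = 0.0109) were called higher at no more than 45.7 normalized counts. CD3E and LYZ were at 0 in all libraries of scr control and shMPZL3 #1, and at most 3.01 with shMPZL3 #2. Of 3 fibroblast markers 2 were tested, and their summed level was 15.7 to 19.8 CPM in scr control, 35.2 to 50.9 with shMPZL3 #1 and 30.4 to 33.2 with shMPZL3 #2. LUM (1.15, adjusted p = 0.02) and COL1A1 (1.05, adjusted p = 0.015) were called higher and DCN was at 0 in every library. The 3 endothelial markers summed to 8.09 to 9.87, 7.31 to 8.80 and 12.4 to 16.1 CPM in the same order of groups, and none was called over both shRNAs. The part of these markers in the results was not tested.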

How the data were processed

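Per the labels and the study's methods, poly-A RNA of OVCAR4 cells was sequenced in 9 libraries that do not keep strand. The authors deposited raw counts per gene, one column per library, made with HISAT2 2.0.5 and featureCounts 1.5.0-p3 on hg38 according to the submitters' processing notes. Coordinates are those of the deposited table (GRCh38). The deposited gene length, in bases, was used only for levels per kilobase. No test values by the authors were used.

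Genes were filtered with edgeR 4.0.16 (filterByExpr by group), scaled by TMM and tested with the quasi-likelihood test in R 4.3.3, with Benjamini-Hochberg adjustment over 16928 genes. The 6 knockdown libraries were compared with 3 scr control libraries in a fit of 2 groups, since the study's methods group both shRNAs. Each shRNA, and shMPZL3 #2 against shMPZL3 #1, came from a fit of 3 groups. Standard errors were derived from the log2 coefficient and its F value. log2 CPM used a prior count of 2. The scripts were tested on simulated counts. DESeq2 1.42.0, upper-quartile and RLE scaling, no filter, at least 10 counts in every library, a replicate block and leaving out each library were alternatives. For both shRNAs together, the mean of their effects in the fit of 3 groups was a further alternative.

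Named in the text are MPZL3, the 10 genes, up to 4 called genes with the largest change per list, CHUK, IKBKB, IKBKG and MAP3K14, and the closest profile for each of the 10. BIRC2, TNIP1 beside NFKB2, the overlapping genes and the cell type markers were added for the results they stand beside. The members, the lists and the tests were chosen with earlier results of these data known. Replicate libraries differed by 3.08 to 23.2 in chi-square per gene, so none was a duplicate. Protein sequences were not used here.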

Additional observations from a re-analysis of the deposited data

Results flagged for a closer look

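TNFAIP3 differed between the shRNAs: its log2 level was 0.75 higher with shMPZL3 #2 than with shMPZL3 #1 (SE 0.13, adjusted p = 0.00122, edgeR's quasi-likelihood test), and all 3 libraries of shMPZL3 #2 lay above the 3 of shMPZL3 #1. The difference itself was tested, in the fit of 3 groups, where the control libraries enter the estimate of the spread but not the difference. MPZL3 was at the same time 1.28 higher with shMPZL3 #2.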

How the results depend on the processing

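Over the alternatives, values of the 10 genes kept direction and side of the threshold in 562 cases, lost the call in 22, gained it in 13 and changed sign in 13. The changes of sign were all in values that were not called, when 1 library was left out: the ranges were -0.064 to 0.068 for NFKB1 and -0.039 to 0.53 for REL with shMPZL3 #1, -0.046 to 0.29 for IKBKE with shMPZL3 #2, and, between the shRNAs, -0.15 to 0.053 for RELA, -0.28 to 0.033 for RELB, -0.25 to 0.32 for REL and -0.30 to 0.25 for BIRC3. With 1 library left out, the called members numbered 2 to 6 over both shRNAs, 2 to 6 with shMPZL3 #1 and 1 to 2 between the shRNAs. All genes called ranged from 453 to 1737 higher and 172 to 1450 lower over both shRNAs, 1689 to 2824 lower with shMPZL3 #1, 910 to 1732 higher and 354 to 1388 lower with shMPZL3 #2, and 667 to 1521 higher and 798 to 1432 lower between the shRNAs. Called list genes ranged from 15 to 35 higher and 0 to 1 lower over both shRNAs, 0 to 3 lower with shMPZL3 #1, 0 to 2 lower with shMPZL3 #2 and 2 to 7 lower between the shRNAs. The lowest counts of members, list genes and all genes called higher over both shRNAs came without scr control replicate 1. Averaging both shRNA effects in the fit of 3 groups called 2479 genes higher and 2198 lower, and 2 list genes lower. List genes called lower were 1 with no filter and 1 with DESeq2 over both shRNAs, and 1 with upper-quartile scaling and 1 with at least 10 counts with shMPZL3 #1. DESeq2 called 2 members higher between the shRNAs. The causes were not tested. Neither the labels nor the methods give same-numbered libraries a shared source. Deviations of same-numbered libraries correlated between -0.00143 and 0.218, with 3 of 9 pairs over 0.1, and other pairs between -0.147 and 0.0671, so not every pair was over 0.1 and the numbers were not taken as a pairing. Between the shRNAs the same-numbered libraries correlated at 0.137, 0.218 and 0.0966, each library best with its own number, which is a hint from the data and not from the design. With the replicate block, list genes called lower were 2 over both shRNAs, 4 with shMPZL3 #1, 2 with shMPZL3 #2 and 9 between the shRNAs, all genes called were 1597 lower with shMPZL3 #2 and 2015 higher between the shRNAs, and 3 members were called higher between the shRNAs (NFKB1, adjusted p = 0.0253, NFKBIA, adjusted p = 0.0429, and TNFAIP3).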
